A study of Saccharomyces cerevisiae with 48 samples.

Results

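Chromosome IV of budding yeast (Saccharomyces cerevisiae) was followed through meiotic S phase at 584 of the 4568 positions of the genome that have values, or 12.8%. Every position listed for chromosome IV was taken, and no position was chosen by its value. Positions were 2.5 kb apart in sacCer2 coordinates and ran from 17.5 kb to 1525 kb, with 6 gaps in which 20 positions were not listed. It has the longest listing in the genome, and the next longest chromosome has 417 positions. The centromere, at about 450 kb, leaves 173 positions on the left arm and 411 on the right arm. Genes and origins in these coordinates were not used here, except for the rounded position of ARS416.

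Total DNA was sequenced from synchronized cultures in sporulation medium. DDK OP cultures overproduce DDK, the Cdc7-Dbf4 kinase, by a promoter not given in the sources used here. CDC7 and DBF4 themselves lie on chromosome IV, on its left and right arms, and whether the way DDK was overproduced affects values beside them was not tested. The tof1∆ cultures lack TOF1, and WT is wild type at both. Each of these 3 backgrounds was grown as an ars∆ culture, which is known to lack active origins on the left arm of chromosome III, and as an ARS+ culture, which keeps them. No change on chromosome IV is labelled in any of these 6 cultures, each of a different strain. Each was sampled at 8 times, and the 7 times of 1, 1.5, 2, 2.5, 3, 3.5 and 4 hr in meiosis have values, which makes 42 samples.

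Replication starts at many origins along each yeast chromosome, and forks leaving an origin copy DNA in both directions until they meet forks from the neighbouring ones. Early origins therefore appear as peaks of relative copy number, and the places where forks meet late as valleys. DDK phosphorylates the replicative helicase at origins and so triggers firing, and budding yeast kinetochores are known to recruit DDK to nearby origins. Tof1 travels with the fork as part of the fork protection complex, which slows or pauses forks at obstacles and is known to hold DDK at the replisome in meiosis.

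Values were the authors' ratios, between 0.605 and 1.46 on chromosome IV, divided here by the median ratio of their sample and put on the log2 scale. A region copied in all cells while the median position was copied in none would stand at 1. For each culture and position, the rise index subtracts the 1 hr value from the average over the times of 2 to 4 hr, so anything shared by the samples of a culture cancels. A positive index means that a position gained copies relative to the median position of the genome, as early DNA does, and a negative one that it fell behind. In bulk DNA, earlier copying in every cell and copying in more of the cells cannot be told apart. No counts were given, so the depth is unknown, and 1 culture per strain limits every comparison of backgrounds to 2 cultures against 2. The cultures are the replicates below, and their spread covers strain, culture and technical differences together.

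A broad early block around the centromere and a second one on the right arm were the longest stretches of chromosome IV with an index above 0. Averaged over the 6 cultures and smoothed over 5 positions (12.5 kb), the index was above 0 over 29.8% of the profile, with 24.3% of the left arm and 32.0% of the right arm. The longest early block ran from 380 kb to 597.5 kb, spanned the centromere and measured 217.5 kb, with a mean index of 0.064 ± 0.019 (SD, n = 6 cultures). Its means were 0.036 and 0.062 in DDK OP, 0.085 and 0.072 in tof1∆ and 0.081 and 0.047 in WT, ars∆ before ARS+ each time. All 6 cultures were above 0 there. The second block, 95 kb long and between 852.5 kb and 947.5 kb, had 0.045 ± 0.014 (SD, n = 6) and was likewise above 0 in 6 of 6 cultures.

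The longest stretches below 0 lay at both ends and between the early blocks. The right end of the listing, 340 kb from 1185 kb to 1525 kb, had a mean of -0.035 ± 0.0085 (SD, n = 6). Between the early blocks, the 210 kb that begin at 640 kb had -0.037 ± 0.0063 (SD, n = 6). The left end, 185 kb up to 202.5 kb, had -0.040 ± 0.010 (SD, n = 6). Each of these 3 stretches was below 0 in 6 of 6 cultures. In all there were 7 runs above 0 and 8 below. Of the shorter runs above 0, the one between 1000 kb and 1065 kb (65 kb) had 0.024 ± 0.032 (SD, n = 6) and was above 0 in 4 of 6 cultures. That between 317.5 kb and 340 kb (22.5 kb) had 0.019 ± 0.013 (SD, n = 6), above 0 in 5 of 6 cultures. These runs were drawn from the profile itself, so their signs are a description and carry no test.

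**Figure D1:**
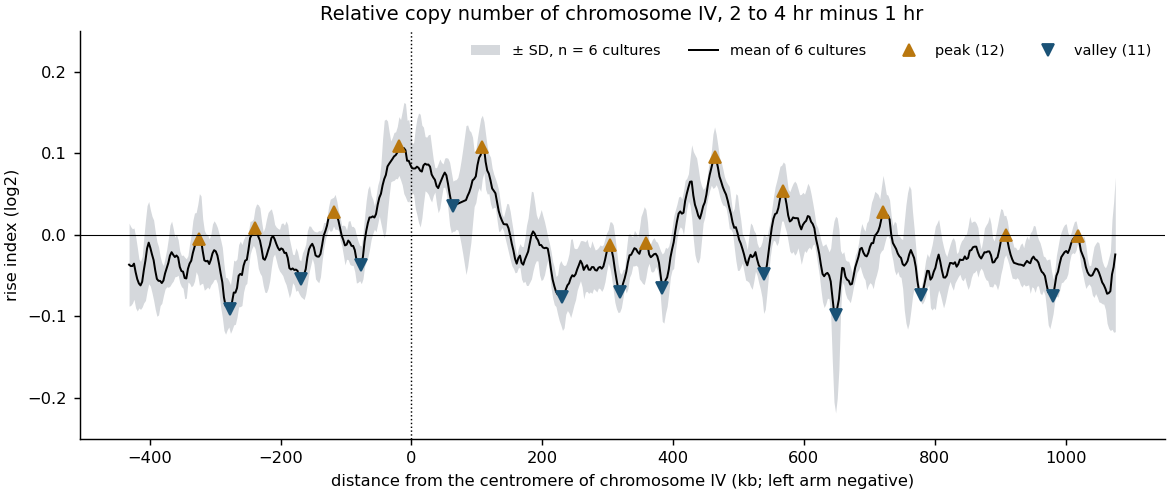
Mean rise index of chromosome IV over 6 cultures (line, log2 scale) with ± SD (grey), smoothed over 12.5 kb, against the distance from the centromere in kb, left arm negative. Triangles mark the 12 peaks and 11 valleys, and the highest ground is the 217.5 kb block that spans the centromere.

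A peak was a local maximum of the smoothed mean profile that stood at least 0.05 above its surroundings, and a valley the opposite. By this rule the chromosome had 12 peaks, 4 on the left arm and 8 on the right, and 11 valleys, 3 on the left arm and 8 on the right. Neighbouring peaks were 55 to 195 kb apart, with a median of 110 kb. The same rule gave 67 peaks over 10.1 Mb on the other 15 chromosomes. That is 7.96 peaks per Mb on chromosome IV and 6.62 per Mb elsewhere, given as a description since the choice of peaks used the values. Single chromosomes ran from 3.86 per Mb on VIII to 10.4 on VII, and X, with 8.48, was also above chromosome IV.

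The highest peak lay at 430 kb, 19 kb left of the centromere. Its rise index was 0.069 in DDK OP ars∆, 0.11 in DDK OP ARS+, 0.15 in tof1∆ ars∆, 0.11 in tof1∆ ARS+, 0.15 in WT ars∆ and 0.071 in WT ARS+, with a mean of 0.11 ± 0.036 (SD, n = 6). DDK OP ars∆ and WT ARS+ were the low cultures, so both backgrounds had 1 low and 1 higher culture and overlapped. A second peak of the same block, at 557.5 kb, had 0.072 and 0.13 in DDK OP, 0.14 and 0.11 in tof1∆ and 0.14 and 0.050 in WT (ars∆, then ARS+), with a mean of 0.11 ± 0.039 (SD, n = 6). The same 2 cultures were lowest. Both peaks reached their highest mean at 3 hr, with 0.14 ± 0.058 at 430 kb and 0.14 ± 0.040 at 557.5 kb relative to 1 hr (SD, n = 6). At 4 hr they had come back to 0.093 ± 0.031 and 0.087 ± 0.033 (SD, n = 6).

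Far from the centromere, the peak at 912.5 kb led the second early block. It had 0.030 and 0.082 in DDK OP, 0.14 and 0.12 in tof1∆ and 0.11 and 0.094 in WT (ars∆, then ARS+), with a mean of 0.096 ± 0.037 (SD, n = 6). Both DDK OP cultures lay below all 4 others here. In the window that holds the peak, at 910001 to 920000, DDK OP minus WT was -0.048 (SE 0.033, limma adjusted p = 0.94) and did not pass. At 3 hr this peak stood at 0.055 and 0.058 in DDK OP, 0.12 in both tof1∆ cultures and 0.16 and 0.15 in WT. The next peak, at 1017.5 kb, had 0.029 and 0.095 in DDK OP, 0.067 and 0.085 in tof1∆ and 0.046 and -0.0015 in WT. WT ARS+ was the culture without a gain there.

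Among the 12 peaks, 4 were above 0 in all 6 cultures, namely those at 330, 430, 557.5 and 912.5 kb. The peak at 330 kb, 119 kb left of the centromere, was low, at 0.029 ± 0.018 (SD, n = 6). It ran from 0.0010 in DDK OP ars∆ to 0.048 in tof1∆ ARS+. Those at 1170 kb, with 0.028 ± 0.045, and at 210 kb, with 0.0081 ± 0.025 (SD, n = 6), had means smaller than their spread. A further 5 peaks, at 125, 752.5, 807.5, 1357.5 and 1467.5 kb, had means at or below 0, so they are local maxima within late stretches. They lay between -0.012 and -4.4e-05, about as late as the median position or later.

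The valley with the smallest spread of the rise index was that at 1227.5 kb, with -0.076 and -0.077 in DDK OP, -0.086 and -0.068 in tof1∆ and -0.064 and -0.074 in WT (ars∆, then ARS+). Its mean was -0.074 ± 0.0076 (SD, n = 6), and at 3 hr it reached -0.10 ± 0.033 (SD, n = 6) relative to 1 hr. On the mean of 1 to 4 hr, with no early value subtracted, its SD was 0.016, against 0.015 for the valley at 172.5 kb. On the left arm the lowest valley, at 172.5 kb, had -0.088 and -0.060 in DDK OP, -0.090 and -0.13 in tof1∆ and -0.058 and -0.12 in WT, with a mean of -0.091 ± 0.030 (SD, n = 6). It was lowest at 3 hr, at -0.13 ± 0.048 (SD, n = 6). The valley at 1430 kb, in the late right end, was the one that was lowest at 4 hr, with -0.093 ± 0.033 (SD, n = 6).

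The index of the other valleys varied more between cultures than that at 1227.5 kb. The valley at 680 kb had -0.14 and -0.018 in DDK OP, -0.070 and -0.071 in tof1∆ and -0.097 and -0.062 in WT. Those at 767.5, 832.5 and 280 kb had means of -0.070 ± 0.024, -0.065 ± 0.041 and -0.054 ± 0.022 (SD, n = 6). Of the 11 valleys, 8 were below 0 in 6 of 6 cultures. A dip inside the centromeric block, at 512.5 kb, had a mean above 0, at 0.035 ± 0.031 (SD, n = 6). It sits at the edge of the widest gap, where 9 positions were not listed, so its smoothed value rests partly on positions filled by a straight line. The valley at 987.5 kb lies inside a gap, so its value of -0.047 ± 0.049 (SD, n = 6) rests on neighbouring positions joined by a straight line. The deepest mean, -0.098 at 1097.5 kb, had the widest spread, 0.12 (SD, n = 6), with 0.042 and 0.028 in DDK OP, -0.24 and -0.061 in tof1∆ and -0.22 and -0.14 in WT.

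**Figure D2:**
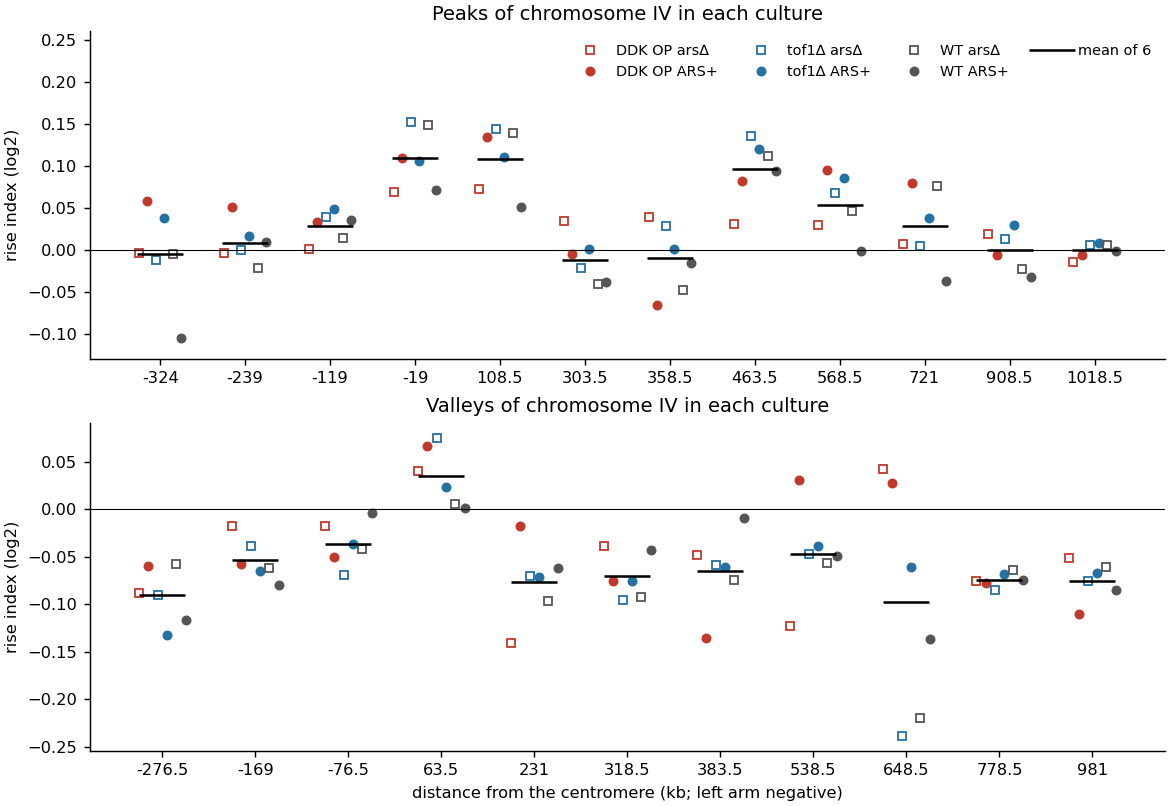
Rise index (log2) of the 12 peaks and 11 valleys in each culture, ordered by distance from the centromere in kb. Horizontal bars are means of 6, and the valley 648.5 kb to the right splits into 2 DDK OP cultures above 0 and 4 other cultures below 0.

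The 6 cultures shared the shape of the profile. Over the 150 10-kb windows of the chromosome, the index of cultures of the same background correlated at 0.46 to 0.72 (median 0.55, 3 pairs), and that of cultures of different backgrounds at 0.38 to 0.66 (median 0.57, 12 pairs). These coefficients describe neighbouring windows of the same DNA and carry no p. Taken alone, each culture had 19 to 23 peaks. Such peaks came within 10 kb of the mean peaks at 430, 557.5 and 912.5 kb in 5 of 6 cultures, and likewise of those at 752.5 and 1017.5 kb, but of that at 210 kb in 2 of 6, while 28.3% to 34.3% of the profile lies that close to a peak of a given culture. For the valleys the number ran between 3 of 6 cultures, at 280, 372.5, 512.5, 680, 987.5 and 1227.5 kb, and 6 of 6, at 172.5 kb, while 29.6% to 32.8% of the profile lies that close to a valley of a given culture. Each culture is part of the mean that set these positions.

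**Figure D3:**
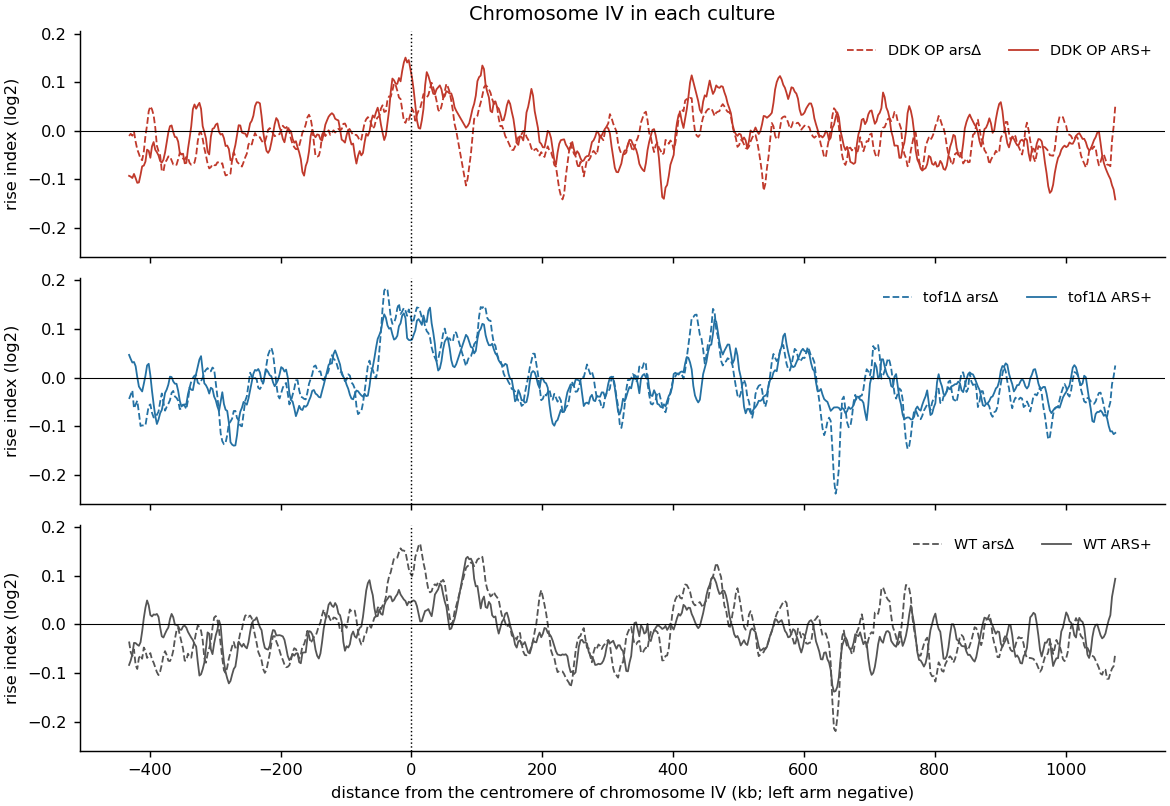
Smoothed rise index (log2) of chromosome IV in each culture, ars∆ dashed and ARS+ solid, with DDK OP above tof1∆ above WT. The gain around the centromere appears in all 6 cultures and is lowest in DDK OP ars∆ and WT ARS+.

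To read peaks in cultures that had not chosen them, peaks and valleys picked in the ARS+ cultures were measured in the ars∆ cultures and the other way round. The 16 peaks exceeded the 15 valleys by 0.056 ± 0.018 (SD, n = 3) in the ars∆ cultures. In the ARS+ cultures, the 14 peaks exceeded the 14 valleys by 0.059 ± 0.028 (SD, n = 3). The difference was 0.036 and 0.065 in DDK OP, 0.072 and 0.084 in tof1∆ and 0.059 and 0.029 in WT (ars∆, then ARS+). Both tof1∆ values lay above the other 4. With 2 cultures a background, this order was not tested.

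On average, peaks and valleys drew apart between 1.5 and 3 hr, and their difference narrowed afterwards without closing by 4 hr. Relative to 1 hr, the mean difference was 0.0094 ± 0.014 at 1.5 hr, 0.038 ± 0.021 at 2 hr, 0.069 ± 0.041 at 2.5 hr, 0.081 ± 0.029 at 3 hr, 0.060 ± 0.020 at 3.5 hr and 0.038 ± 0.019 at 4 hr (SD, n = 6). It was highest at 3 hr in both DDK OP cultures (0.048 in ars∆, 0.086 in ARS+). In tof1∆ it was highest at 3 hr in ars∆ (0.12) and at 2.5 hr in ARS+ (0.12). WT ars∆ had its highest value at 3 hr (0.089). WT ARS+ was the slowest, with 0.0064 at 2.5 hr and its highest value, 0.066, at 3.5 hr. The 2 WT cultures thus reached their highest values at different times.

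**Figure D4:**
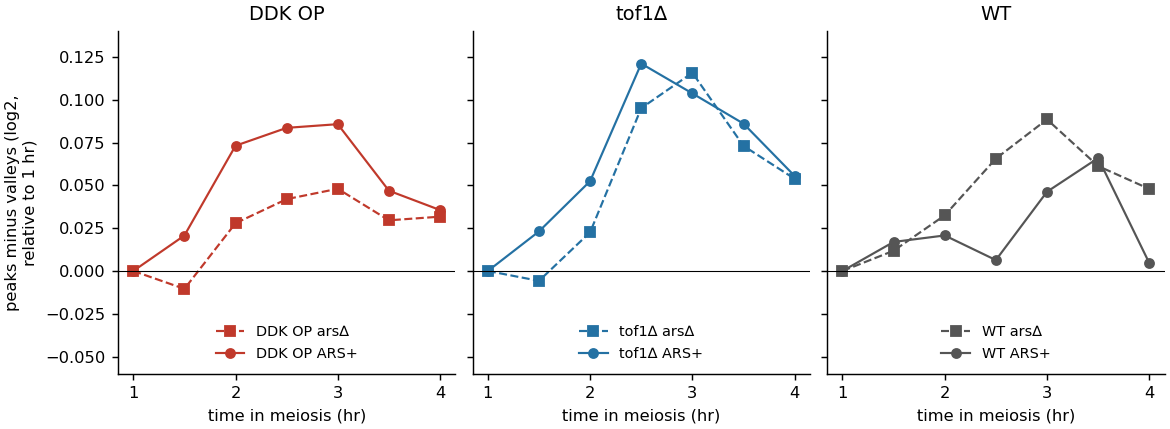
Peaks minus valleys of chromosome IV (log2, relative to 1 hr) against time in meiosis in hr, in cultures that did not choose them, ars∆ as dashed lines with squares and ARS+ as solid lines with circles. The difference is highest at 2.5 to 3.5 hr, with the largest values in tof1∆.

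The 20 positions within 25 kb of the centromere were early in every culture. Their rise index was 0.092 ± 0.040, against -0.015 ± 0.0057 for the rest of the chromosome (SD, n = 6). The excess was 0.063 and 0.092 in DDK OP, 0.15 and 0.12 in tof1∆ and 0.16 and 0.064 in WT (ars∆, then ARS+). It averaged 0.11 ± 0.041 (SD, n = 6) and was higher in 6 of 6 cultures (exact two-sided sign-flip p = 0.031, the smallest possible with 6 cultures). Adjusted over the 6 exact tests on the chromosome by the method of Benjamini and Hochberg, p was 0.063 and did not pass 0.05. With 6 cultures, a test can pass this adjustment only if most of the 6 tests reach the smallest possible p. Not passing is therefore no measure of the size of the excess, and the same holds for the other exact tests. The bounds of this region did not use the values, but the profile was known when it was chosen.

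In the mean of the 6 cultures, the gain at the centromere came mainly after 2 hr. Relative to 1 hr the excess was 0.013 ± 0.034 at 1.5 hr, 0.051 ± 0.018 at 2 hr, 0.12 ± 0.084 at 2.5 hr, 0.14 ± 0.078 at 3 hr, 0.14 ± 0.042 at 3.5 hr and 0.076 ± 0.037 at 4 hr (SD, n = 6). From 2 hr on it was above 0 in 6 of 6 cultures. The DDK OP cultures departed from this course, as ARS+ already had 0.080 at 2 hr, and ars∆ had 0.046 at 2 hr and less at 2.5 hr. The wide spread at 2.5 hr separated 4 cultures, at 0.14 in DDK OP ARS+, 0.19 and 0.17 in tof1∆ and 0.20 in WT ars∆, from DDK OP ars∆ at 0.023 and WT ARS+ at 0.015. At 3.5 hr WT ARS+ had reached 0.16, inside the range of the others.

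Beside the centromere lies ARS416, the first yeast origin isolated, in the window at 460001 to 470000. Its index was 0.088 and 0.026 in DDK OP, 0.12 in both tof1∆ cultures and 0.13 and 0.00048 in WT (ars∆, then ARS+). The index was low in WT ARS+ and DDK OP ARS+. DDK OP ARS+ already had the highest level of all cultures at 1 hr, at 0.11, and again at 2 hr, at 0.19. Its low index therefore does not mean a low level. None of the comparisons of backgrounds passed limma there, with DDK OP minus WT at -0.0084 (SE 0.035, adjusted p = 0.99) and tof1∆ minus WT at 0.053 (SE 0.035, adjusted p = 0.80).

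Taken whole, the left and right arms did not differ beyond the spread between cultures. The index averaged -0.012 ± 0.0055 on the left arm and -0.011 ± 0.0061 on the right arm (SD, n = 6). The difference of -0.0014 ± 0.0040 (SD, n = 6) was positive in 3 cultures and negative in the other 3 (exact p = 0.53, adjusted p = 0.53). The right arm is longer, so the left arm was also set against the stretch of the right arm within about 450 kb of the centromere (166 positions). The left listing starts at 17.5 kb, so this stretch reaches slightly farther from the centromere and is only roughly matched. The left arm averaged -0.012 ± 0.0055, against 0.0018 ± 0.0086 for that stretch (SD, n = 6). The difference of -0.014 ± 0.0074 (SD, n = 6) was lower in 6 of 6 cultures (exact p = 0.031, adjusted p = 0.063) and did not pass after adjustment.

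The left arm lagged behind the right one within 200 kb of the centromere. In the first 100 kb the index was 0.042 ± 0.013 on the left and 0.071 ± 0.018 on the right (SD, n = 6), with a difference of -0.029 ± 0.0084, lower on the left in 6 of 6 cultures. From 100 to 200 kb it was -0.016 ± 0.0093 on the left and 0.021 ± 0.018 on the right (SD, n = 6), a difference of -0.037 ± 0.017, with the left again lower in 6 of 6 cultures. That stretch of the right arm holds the peak at 557.5 kb. From 200 to 300 kb the left arm was higher in 5 of 6 cultures, at -0.033 ± 0.016, against -0.045 ± 0.013 on the right (SD, n = 6). Farther out, the bin of the right arm between 400 and 500 kb from the centromere was early, with 0.042 ± 0.013 (SD, n = 6) and 6 of 6 cultures above 0. These bins were set after the profile was seen and were not tested.

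The left end ran from the first listed position, 17.5 kb, to 30 kb, and the right end was the last 30 kb listed. These 18 positions, more of them on the right, had an index of -0.047 ± 0.029, against -0.010 ± 0.0063 elsewhere on the chromosome (SD, n = 6). They were lower by -0.019 and -0.081 in DDK OP, -0.024 and -0.037 in tof1∆ and -0.068 in WT ars∆, whereas WT ARS+ was at 0.0086. The mean difference of -0.037 ± 0.033 (SD, n = 6) was lower in 5 of 6 cultures (exact p = 0.063, adjusted p = 0.094). At 3.5 hr the ends were lower in 6 of 6 cultures, by -0.052 ± 0.031 (SD, n = 6) relative to 1 hr.

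As a whole, chromosome IV gained slightly less than the other 15 chromosomes. Its mean index was -0.011 ± 0.0056, against 0.0021 ± 0.0015 for them (SD, n = 6), which made it the fifth lowest of 16. The difference of -0.013 ± 0.0070 (SD, n = 6) was lower in 6 of 6 cultures (exact p = 0.031, adjusted p = 0.063). It was largest at 3 hr, at -0.022 ± 0.0098 (SD, n = 6), and -0.0065 ± 0.0096 at 4 hr. The WT cultures had the lowest values, -0.019 in ars∆ and -0.022 in ARS+, while DDK OP ARS+ stood at -0.0026. The spread of the profile, as the SD over 10-kb windows, was 0.056 ± 0.0084 on chromosome IV and 0.054 ± 0.0062 on the others (SD, n = 6). Their difference of 0.0024 ± 0.0027 (SD, n = 6) was above 0 in 5 of 6 cultures (exact p = 0.13, adjusted p = 0.15).

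Between DDK OP and WT, a single place on chromosome IV passed the test, a valley of the mean profile at 1097.5 kb. Both DDK OP cultures were above 0 there, and the call depended on 3 of the 6 cultures. limma (linear models across all 1174 10-kb windows of the genome, Benjamini-Hochberg adjusted p under 0.05) called 1 of the 150 windows of chromosome IV, against 0.17% of all windows. At an unadjusted p under 0.05 there were 7 of 150, against 5.37% of all windows. The called window, at 1090001 to 1100000, had an index of 0.052 in DDK OP ars∆ and 0.032 in DDK OP ARS+, against -0.25 in WT ars∆ and -0.14 in WT ARS+. The DDK OP cultures lay above both WT cultures without overlap, with a difference of 0.24 (SE 0.042, adjusted p = 0.038). In tof1∆ it had -0.26 in ars∆ and -0.066 in ARS+, so the tof1∆ cultures spanned the WT values. The call was lost without DDK OP ars∆ (difference 0.15, limma adjusted p = 0.16), without WT ars∆ (0.23, limma adjusted p = 0.77) and without WT ARS+ (0.25, limma adjusted p = 0.82). It was also lost when ratios were centred on chromosome IV (0.22, limma adjusted p = 0.19) and when the index was 2.5 to 3.5 hr minus 1 and 1.5 hr (0.13, limma adjusted p = 0.22).

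The difference was wide at 1097.5 and 1100 kb and smaller at the positions and windows beside them, and its cause was not tested. At 1097.5 kb the index was 0.073 and 0.12 in DDK OP, -0.41 and -0.063 in tof1∆ and -0.37 and -0.17 in WT (ars∆, then ARS+). At 1100 kb it was 0.070 and 0.074 in DDK OP, -0.37 and -0.043 in tof1∆ and -0.31 and -0.14 in WT. At 1090 kb DDK OP had 0.023 and -0.064, and WT -0.074 and -0.12, so most of the gap had gone. The window to the left, at 1080001 to 1090000, gave a DDK OP minus WT difference of 0.030 (SE 0.031, adjusted p = 0.95) by limma, and that to the right, at 1100001 to 1110000, one of 0.010 (SE 0.031, adjusted p = 0.98).

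At 1 hr the window stood at 0.10 and 0.064 in DDK OP, 0.070 and -0.011 in tof1∆ and 0.087 and -0.11 in WT (ars∆, then ARS+), so the groups overlapped. At 2 hr DDK OP had 0.15 and 0.10, against -0.13 and -0.27 in WT, with a difference of 0.33 (SE 0.041, limma adjusted p = 0.0067). This was 1 call on chromosome IV, against 0.0852% of all windows. The difference also passed at 2.5 hr (0.24, SE 0.052, limma adjusted p = 0.0049, against 0.17% of windows called) and at 3 hr (0.34, SE 0.063, limma adjusted p = 0.031, against 0.256%). At 2.5 hr the SE was the same in all windows followed over time, so it did not use the spread of this one. The difference did not pass at 1.5 hr, when DDK OP had 0.25 and -0.035, against -0.020 and -0.24 in WT (difference 0.24, SE 0.050, limma adjusted p = 0.12), and the groups overlapped. Nor did it pass at 3.5 hr, when DDK OP had 0.20 and 0.012, against -0.033 and -0.38 in WT (difference 0.32, SE 0.079, limma adjusted p = 0.69). At 4 hr DDK OP stood at 0.23 in both cultures and WT at -0.18 and -0.23, a difference of 0.43 (SE 0.061) that did not pass (limma adjusted p = 0.10). In tof1∆ the window was already higher than WT at 1.5 hr, with 0.16 and 0.12 against -0.020 and -0.24 (difference 0.27, SE 0.050, limma adjusted p = 0.012, against 0.426% of windows called). By 3 hr the tof1∆ cultures stood at -0.35 and -0.11, beside -0.32 and -0.20 in WT.

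**Figure D5:**
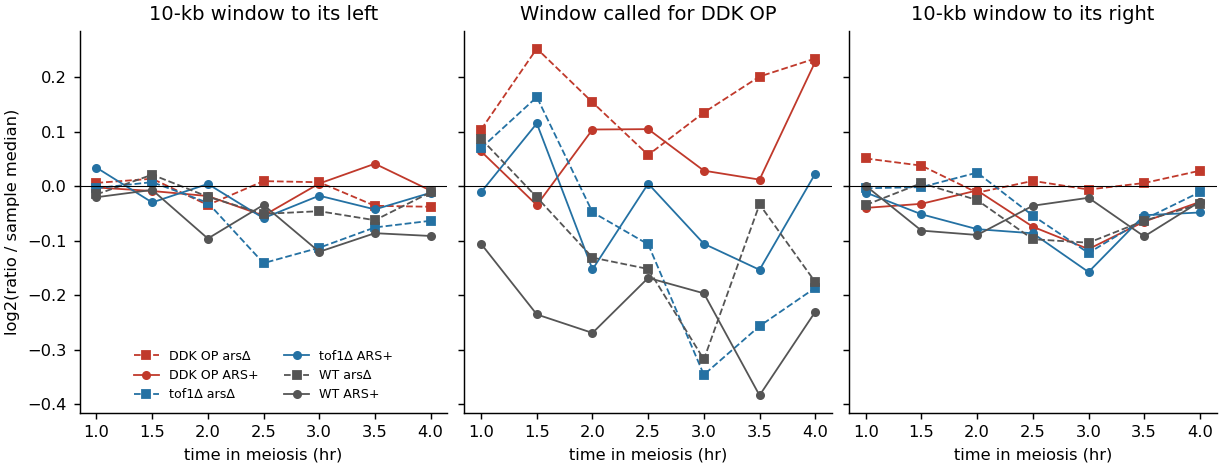
log2(ratio / sample median) against time in meiosis in hr, for the window called in DDK OP (middle) and the 10-kb windows beside it, with DDK OP in red, tof1∆ in blue and WT in grey, ars∆ dashed and ARS+ solid. In the middle panel both DDK OP cultures end at 0.23 at 4 hr and both WT cultures below -0.17, while the neighbouring windows show no such gap.

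The second window by p for DDK OP, at 530001 to 540000, lies beside the widest gap and holds 2 listed positions. It had -0.077 and 0.015 in DDK OP, against 0.13 and 0.14 in WT, a difference of -0.17 (SE 0.032, limma adjusted p = 0.059) that missed the threshold. The tof1∆ cultures were between them, at 0.051 and 0.077. Another, at 870001 to 880000, rests on 1 listed position and had 0.15 and 0.14 in DDK OP, against 0.070 and 0.036 in WT (difference 0.092, SE 0.030, limma adjusted p = 0.78).

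For tof1∆ against WT, limma called 0 of the 150 windows on the rise index, as in the genome (0% of windows). At an unadjusted p under 0.05 there were 14, with 9 higher and 5 lower in tof1∆, which is 9.33% of chromosome IV, against 8.09% of all windows. The lowest p belonged to the window at 400001 to 410000, on the left edge of the centromeric block. It had 0.17 in tof1∆ ars∆ and 0.13 in tof1∆ ARS+, against 0.038 and 0.029 in WT, with a difference of 0.12 (SE 0.031, limma adjusted p = 0.48). In DDK OP it had 0.044 and -0.014. Windows at 220001 to 230000 and at 1040001 to 1050000 came next, with differences of 0.092 (SE 0.031) and 0.087 (SE 0.032), both at a limma adjusted p of 0.48. At 1 hr the window at 400001 to 410000 stood lower in tof1∆, at -0.12 and -0.052, against 0.042 and -0.016 in WT (ars∆, then ARS+). On the mean of 1 to 4 hr, with no early value subtracted, its difference was -0.0028 (limma adjusted p = 0.99). Those at 220001 to 230000 and 1040001 to 1050000 were -0.047 (limma adjusted p = 0.94) and -0.0041 (limma adjusted p = 0.99) on that mean.

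When the mean of 1 to 4 hr was used with no early value subtracted, 1 window of the chromosome was lower in tof1∆ than in WT, against 0.341% of all windows called. This was the first window, at 10001 to 20000, with 2 listed positions. It had -0.18 in tof1∆ ars∆ and -0.17 in tof1∆ ARS+, against 0.14 in WT ars∆ and -0.013 in WT ARS+, a difference of -0.24 (SE 0.037, limma adjusted p = 0.00019). The tof1∆ cultures were already low at 1 hr, at -0.17 and -0.21, against 0.15 and 0.063 in WT. Once the 1 hr value was subtracted the difference became 0.080 (SE 0.035, limma adjusted p = 0.56). At 3 hr alone the window was lower in tof1∆ by -0.39 (SE 0.049, limma adjusted p = 0.00065), against 0.0852% of windows called. This difference passed at no other single time. At 2 hr the groups overlapped, with -0.23 and -0.10 in tof1∆ and 0.15 and -0.19 in WT, ars∆ before ARS+ (difference -0.15, limma adjusted p = 0.92). On the mean of 1 to 4 hr, the DDK OP window at 1090001 to 1100000 passed again, at 0.28 (SE 0.038, limma adjusted p = 1.8e-05), against 0.0852% of windows called.

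Between DDK OP and tof1∆, limma called 0 of the 150 windows on the rise index (0% in the genome), with 6 at an unadjusted p under 0.05, against 5.88% of all windows. The difference at 1090001 to 1100000 was 0.20 (SE 0.042, adjusted p = 0.16) by limma. On the mean of 1 to 4 hr, 2 windows were higher in DDK OP, against 0.426% of all windows called. They were that window, at 0.19, and the one at 10001 to 20000, also at 0.19 (both SE 0.038 or less and limma adjusted p = 0.0083). At 2.5 hr 3 windows were higher in DDK OP than in tof1∆, against 0.511% of all windows. The first, at 10001 to 20000, differed by 0.22, that at 870001 to 880000, with 1 position, by 0.19, and that at 1520001 to 1530000, with 2 positions, by 0.20 (SE 0.052 each, limma adjusted p = 0.015, 0.049 and 0.036). This SE was the same in all windows followed over time, so the spread of each window did not enter it. At 870001 to 880000 the groups overlapped, with 0.26 and -0.016 in DDK OP and 0.024 and -0.17 in tof1∆ (ars∆, then ARS+).

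Deletion of origins on chromosome III left no called window on chromosome IV. limma called 0 of 150 windows for ars∆ against ARS+, against 0.511% of all windows, and 4 at an unadjusted p under 0.05, against 3.92%. The lowest p values were at 1340001 to 1350000, with a difference of -0.070 (SE 0.026, limma adjusted p = 0.92), and at 1090001 to 1100000, with -0.092 (SE 0.034, limma adjusted p = 0.92). The median size of the differences was 0.017 on chromosome IV and 0.016 in the genome for ars∆, 0.022 and 0.023 for DDK OP against WT, and 0.026 and 0.025 for tof1∆ against WT. In simulated data of the same design for DDK OP against WT, limma called 12 of 50 windows changed by 0.10 and 40 of 50 changed by 0.15. There every window had the same spread, and 974 of 1174 windows were left unchanged. Real windows differ in spread, so these rates need not hold for them, and smaller differences on chromosome IV can be missed.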

How the data were processed

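The authors deposited 1 table of ratios per strain, and the submitters' processing notes name BWA and the sacCer2 build. What the ratios were divided by, the BWA version and the width of the averaging are not given in the sources used here. The labels also list 6 samples at 0 hr, which have no column in the tables used here. Division by the 0 hr sample of the strain is inferred, not recorded, and it cancels in the rise index. Each ratio was divided by the median ratio of its sample over all 4568 positions and put on the log2 scale.

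Gaps were filled by a straight line for the smoothed profile only. Peaks were found with scipy (version 1.17.1; prominence 0.05). Regions were compared over 6 cultures by exact sign-flip permutation (two-sided), with Benjamini-Hochberg adjustment over 6 tests. Windows of 10 kb (141 of 150 with all 4 positions) were fitted with limma (version 3.58.1, R 4.3.3) over the whole genome, with terms for background and ars state, 2 residual and 11.4 prior degrees of freedom for the rise index (29.8 prior for the mean of 1 to 4 hr). The ars∆ and ARS+ cultures served as the replicates of a background, and each comparison with WT uses the same 2 WT cultures. The limma steps were tested on simulated data.

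The text names the 8 highest peaks and 8 lowest valleys (others where a count needed them), the called windows of chromosome IV or the 3 of lowest p, and ARS416. Members, regions, the rise index and lists were chosen with earlier results of these data known, and bins of 100 kb after the profile was seen. Alternatives were other indices, smoothing, prominence, window size, filters, centring, eBayes with a trend, and leaving out each culture.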

Additional observations from a re-analysis of the deposited data

Results flagged for a closer look

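The effect of a background on chromosome IV was set against WT within each ars state, where every value rests on 1 culture against 1. Of 12 such pairs of values, 9 had opposite signs in the ars∆ and ARS+ cultures. All pairs use the same WT cultures, so they are not independent, and the count is only a description. None of these differences between ars states was tested.

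For the 25 kb beside the centromere, DDK OP minus WT was -0.095 in ars∆ and 0.028 in ARS+, and tof1∆ minus WT was -0.0099 in ars∆ and 0.052 in ARS+. For the ends of the chromosome, DDK OP minus WT was 0.050 in ars∆ and -0.090 in ARS+, and tof1∆ minus WT was 0.044 in ars∆ and -0.046 in ARS+. WT ARS+ was the culture with the ends above the rest, at 0.0086, and the WT culture with the smaller excess at the centromere, at 0.064, and both ARS+ pairs share it.

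Smaller pairs of opposite sign were also seen. For the left arm minus the right arm, DDK OP minus WT was 6.8e-05 in ars∆ and -0.0089 in ARS+, and tof1∆ minus WT was 0.0065 in ars∆ and -0.0028 in ARS+. With the right arm roughly matched for distance, DDK OP minus WT was 0.011 in ars∆ and -0.0070 in ARS+, and tof1∆ minus WT was 0.00020 in ars∆ and -0.0073 in ARS+. For the SD over windows relative to the other chromosomes, DDK OP minus WT was -0.0054 in ars∆ and 0.0033 in ARS+.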

How the results depend on the processing

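The excess at the centromere stayed positive, and the left arm against the roughly distance-matched right arm and chromosome IV against the others stayed negative, under the alternatives run. The counts of 12 peaks and 11 valleys became 4 and 4 at a prominence of 0.08, and ran between 12 and 14 and between 11 and 13 with a culture left out. On the mean of 1 to 4 hr, 7 of the 12 peaks and 4 of the 11 valleys had a counterpart within 10 kb. The peak minus valley difference of 0.057 in cultures not used to choose them became 0.036 on the mean of 1 to 4 hr and 0.097 at a prominence of 0.08. The difference in SD over windows turned to -0.0045 on the mean of 1 to 4 hr and to -0.0019 as an interquartile range. The left minus right arm difference turned to 0.0019 for 2.5 to 3.5 hr minus 1 and 1.5 hr.

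With a culture left out, limma's counts on chromosome IV ran between 0 and 2 for DDK OP against WT and between 0 and 1 for tof1∆ against WT, for DDK OP against tof1∆ and for ars∆ against ARS+. The DDK OP count was 0 without DDK OP ars∆, without WT ars∆ or without WT ARS+, where 19, 13 and 10 windows had an unadjusted p under 0.05, and 2 without any 1 of the other cultures. The other counts were 1 without tof1∆ ARS+ for tof1∆ against WT, without DDK OP ARS+ or tof1∆ ARS+ for DDK OP against tof1∆, and without either DDK OP culture for ars∆. It was also 0 when ratios were centred on chromosome IV (difference 0.22, adjusted p = 0.19 by limma for the window at 1090001 to 1100000) and 0 for 2.5 to 3.5 hr minus 1 and 1.5 hr (0.13, adjusted p = 0.22). Over the alternatives run on that window its adjusted p ran between 1.2e-06 and 0.82. The count for tof1∆ against WT became 1 on the mean of 1 to 4 hr. That for DDK OP against tof1∆ became 2 on that mean, 1 for 2.5 to 3.5 hr minus 1 and 1.5 hr and 1 with fully listed windows, and that for ars∆ became 1 for 2.5 to 3.5 hr minus 1 and 1.5 hr. On the mean of 1 to 4 hr the window at 10001 to 20000 turned to -0.24 for tof1∆ minus WT and to 0.19 for DDK OP minus tof1∆. The cause of these changes was not tested, except that subtracting 1 hr removes what was present then. With a culture left out, its background has 1 culture, assumed to vary like the others. The labels give no replicate numbers to block on; ars state was a term in each limma fit, so backgrounds were compared within it. Unknown depth limits all values, and windows with 1 or 2 listed positions are the least secure.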
